A study of Mus musculus with 9 samples.

Results

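The genes described here are 40 genes of the cell cycle and of DNA replication. They were chosen by name as cyclins, cyclin-dependent kinases (CDKs) and their inhibitors, replication genes and mitotic genes, with earlier results of these data known. All 40 are listed both in the table of sorted cells and in that of cultured cells, which together hold 17964 genes. They were measured by RNA sequencing in mouse cells prepared as Müller glia, glia that span the whole retina, in 9 libraries of 3 groups with 3 libraries each. The sham group came from WT mice whose cornea had only been cut, and the ocular hypertension (OHT) group from WT mice with 1.2 µL of silicone oil injected into the front chamber of each eye, a way to raise eye pressure. Cells of both groups came from pools of 4 retinas and were held on a magnetic column by an antibody to GLAST, a glutamate transporter that astrocytes also carry. The third group was untreated primary cultures from WT C57BL/6J pups 8 to 10 days old, grown on gelatin in medium with fetal bovine serum. The strain and age of the sham and OHT mice and the time after injection are not given in the labels used here.

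A cell that divides first passes G1, in which D-type cyclins with the kinases Cdk4 and Cdk6 inactivate the RB protein and release E2F factors. E2F factors then switch on cyclin E, the nucleotide-making enzymes and the MCM helicase for DNA replication in S phase, and a later wave of genes with B-type cyclins and Cdk1 drives G2 and mitosis. Müller glia of the adult mouse retina are normally out of the cycle, so that a high level of S or mitosis transcripts is not a usual feature of these cells. The 40 genes were split by role into 8 G1 regulators, 14 genes of G1/S and replication and 18 genes of G2 and mitosis.

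Reads in the listed genes were recovered as each library's total divided by its smallest non-zero value. They came to 37.8 to 44.5 M (1e6) in sham, 47.6 to 53.6 M in OHT and 66.3 to 76.7 M in the cultures. Whether values are whole multiples of that smallest value was checked for the sorted libraries only. Levels in ppm give a gene's share of its library per 1e6 reads. The Müller glia markers (12 genes) summed to 3372 to 8110 ppm in sham and 1826 to 3851 ppm in OHT. There was more RNA of microglia and macrophage markers (14 genes), at 35780 to 54528 ppm in sham and 49930 to 64842 ppm in OHT. Rod markers (6 of 8 listed) were at 2242 to 22454 ppm in sham and 723 to 2877 ppm in OHT, and astrocyte markers (6 of 6 listed) at 15.4 to 1245 ppm and 56.6 to 100.3 ppm. Mural cell and fibroblast markers (9 of 9 listed) were at 119.7 to 246 ppm in sham and 9.22 to 47.8 ppm in OHT, and endothelial markers (6 of 7 listed) at 212 to 432 ppm and 99.2 to 203 ppm, both without overlap. The makeup of the sorted libraries thus moved with the groups, and its part in the differences between OHT and sham was not tested. In the cultures the Müller glia list summed to 2816 to 3728 ppm, of which Vim, an intermediate filament gene also made by fibroblasts, held 2301 to 3319 ppm, while Rlbp1, a defining Müller glia gene of the retinoid cycle, was at 1.60 to 2.84 ppm. Mural cell and fibroblast markers were at 6313 to 8937 ppm there. The data therefore hold little of the defining Müller glia RNA in the cultures, and much RNA of other cells in the sorted libraries, whichever name the labels give. In such bulk RNA fewer cells of a type and less RNA per cell cannot be told apart.

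The promoter letters are shown first as a description, and their part in the levels given below was not tested. RefSeq windows from 250 bases before to 50 bases after the start site (build GRCm38.p6) were matched by symbol to 33 of the 40 genes, with 37 windows. Ccna2, Ccne2, Ccnd1, Ccnd2, Aurkb, Tpx2 and Mcm4 had no window. On both strands, 3 motifs were searched: the cell cycle homology region (CHR, TTTGAA), which is bound by the DREAM complex through its LIN54 subunit, the CCAAT box (CCAAT), which is bound by NF-Y, and E2F words (TTTCGCGC, TTTGGCGC, TTTCCCGC and TTTGCCGC). The CHR letters were found in 11 of 15 G2 and mitosis genes, in 1 of 12 G1/S genes (Mcm2) and in 0 of 6 G1 regulators, against 17.9% of all 32851 windows of this length. The CCAAT letters were in 14 of 15, 9 of 12 and 3 of 6 genes of these groups, against 37.4% of all windows. An E2F word was in 5 of 12 G1/S genes (Cdk2, Mcm3, Mcm5, Mcm6 and Mcm7), in 1 of 15 G2 and mitosis genes (Cdk1) and in 1 of 6 G1 regulators (Cdkn2a), against 2.26% of all windows. A gene with several windows was counted once if any window matched. Such matches are descriptions of letters and not binding sites, and a window without a match says nothing of a factor.

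Shown here are 4 mitotic genes with both CCAAT and CHR letters, and then Mcm5 and Mcm6 with E2F words. Each is given 5′ to 3′ on the strand of its gene, with the matched letters in capitals on either strand.
Ccnb2: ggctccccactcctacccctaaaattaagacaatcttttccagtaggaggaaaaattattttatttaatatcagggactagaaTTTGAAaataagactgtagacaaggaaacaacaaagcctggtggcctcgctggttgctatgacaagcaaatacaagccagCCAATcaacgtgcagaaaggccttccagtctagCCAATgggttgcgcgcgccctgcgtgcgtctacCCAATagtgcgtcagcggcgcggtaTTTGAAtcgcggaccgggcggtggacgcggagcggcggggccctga
Plk1: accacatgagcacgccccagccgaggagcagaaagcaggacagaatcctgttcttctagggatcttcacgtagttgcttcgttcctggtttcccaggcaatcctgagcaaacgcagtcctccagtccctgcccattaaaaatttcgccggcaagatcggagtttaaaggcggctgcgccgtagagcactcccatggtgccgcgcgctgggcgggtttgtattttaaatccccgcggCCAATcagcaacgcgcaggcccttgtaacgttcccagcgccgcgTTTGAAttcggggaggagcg
Cdc20: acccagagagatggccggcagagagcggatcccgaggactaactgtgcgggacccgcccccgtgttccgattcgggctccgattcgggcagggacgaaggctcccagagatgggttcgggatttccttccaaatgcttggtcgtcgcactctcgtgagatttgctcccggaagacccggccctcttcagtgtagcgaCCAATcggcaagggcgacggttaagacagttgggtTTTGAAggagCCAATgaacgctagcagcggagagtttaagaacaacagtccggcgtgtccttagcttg
Cdk1: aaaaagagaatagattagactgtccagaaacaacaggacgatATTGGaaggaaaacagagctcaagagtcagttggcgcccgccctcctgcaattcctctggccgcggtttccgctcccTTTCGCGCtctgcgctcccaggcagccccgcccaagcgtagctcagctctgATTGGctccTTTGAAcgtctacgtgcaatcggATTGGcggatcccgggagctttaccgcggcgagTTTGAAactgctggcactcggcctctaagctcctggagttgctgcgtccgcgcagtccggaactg
Mcm5: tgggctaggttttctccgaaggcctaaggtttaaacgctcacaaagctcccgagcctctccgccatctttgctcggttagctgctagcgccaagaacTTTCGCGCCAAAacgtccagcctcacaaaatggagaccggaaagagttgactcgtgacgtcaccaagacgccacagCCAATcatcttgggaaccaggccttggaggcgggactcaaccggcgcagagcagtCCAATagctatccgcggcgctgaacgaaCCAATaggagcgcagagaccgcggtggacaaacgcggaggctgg
Mcm6: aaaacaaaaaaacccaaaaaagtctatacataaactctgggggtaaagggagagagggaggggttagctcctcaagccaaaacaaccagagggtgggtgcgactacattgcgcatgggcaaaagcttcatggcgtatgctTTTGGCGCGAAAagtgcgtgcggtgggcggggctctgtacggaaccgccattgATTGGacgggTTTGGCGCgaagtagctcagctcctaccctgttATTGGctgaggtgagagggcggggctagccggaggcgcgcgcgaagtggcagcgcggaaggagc

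These windows lie at chr9:70421505-70421804 (minus strand), chr7:122159185-122159484 (plus), chr4:118437294-118437593 (minus), chr10:69352863-69353162 (minus), chr8:75109259-75109558 (plus) and chr1:128359656-128359955 (minus). In Ccnb2, the gene of cyclin B2, 3 CCAAT boxes begin 87, 54 and 21 bases before the start site and a CHR word begins 5 bases past it. Another CHR word of Ccnb2 begins 167 bases before the start. In Cdk1 the CHR word that begins 15 bases before the start follows a CCAAT box on the opposite strand 48 bases before it, and this window also holds an E2F word that begins 131 bases before the start. In Plk1 the only CCAAT box begins 14 bases before the start and the CHR word 31 bases past it. In Mcm5 and Mcm6 an E2F word overlaps one on the opposite strand, so that the run in capitals holds both.

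The comparison of OHT with sham asked whether these genes differ in the sorted cells under raised eye pressure. No single direction described them. The G2 and mitosis genes and the G1/S genes were spread most within the OHT group itself, with OHT replicate 2 above every sham library. For the G2 and mitosis genes the other OHT libraries lay mostly below. For the 14 G1/S genes OHT replicate 3 lay below every sham library in 10. There OHT replicate 1 lay below in 7 and above in 6. Among the G1 regulators Cdkn1a, the inhibitor p21, and the kinase gene Cdk4 were higher in each OHT library than in any sham library, and so were the replication clamp Pcna and the centromere gene Cenpa, on the deposited scale. In ppm this held for Cdkn1a and Pcna but not for Cdk4 and Cenpa. Among the 39 members whose mean reached 10 normalised counts, 0 passed an adjusted p of 0.05 in limma, as did 0.0% of all 14403 genes tested. At an unadjusted p under 0.05 there were 4 of the 39 genes, against 11.7% of all genes: Cdkn1a, Cenpa and Cdk1 were higher (5.37% of all genes) and Ccnd3 lower (6.3% of all genes). On the recovered reads edgeR's quasi-likelihood test also passed 0 of them (0.0% of all genes, with 4 of the 39 and 10.9% of all genes at an unadjusted p under 0.05), and DESeq2 passed 0 of them (1.74% of all genes, with 7 of the 39 and 14.1% of all genes at an unadjusted p under 0.05). The 4 genes with no overlap, all OHT above all sham, compare with 9.26% of all genes, and 0 genes had all OHT below all sham, against 9.18%. These shares are near the background and are no result about the cell cycle genes as a group.

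The median log2 difference of the 39 genes was -0.28, beside -0.12 for all genes. With quantile normalization, which moved the median of all genes to 0.0097, that of the 39 genes was 0.058. In edgeR and DESeq2, which compare means of counts and not means of logarithms, 31 of the 39 genes lay above 0, while in limma 16 did. The cause of these turned signs was not tested. The deposited scale also bears on OHT replicate 1, whose normalised counts summed to 65.8 M, against 37.8 to 44.1 M in the other sorted libraries. With every library scaled to the same total, the scale of ppm, the limma median of all genes moved to -0.36 and that of the 39 genes to -0.52, with 13 of the 39 above 0. At an unadjusted p under 0.05, 3.02% of all genes were then higher and 7.86% lower, with Cdkn1a and Cenpa higher and Ccnd1 and Ccnd3 lower among the 39 genes. On that scale 2 genes (Cdkn1a and Pcna) had all OHT above all sham, against 5.44% of all genes, and 1 gene (Ccnd3) all below, against 11.4%.

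**Figure D1:**
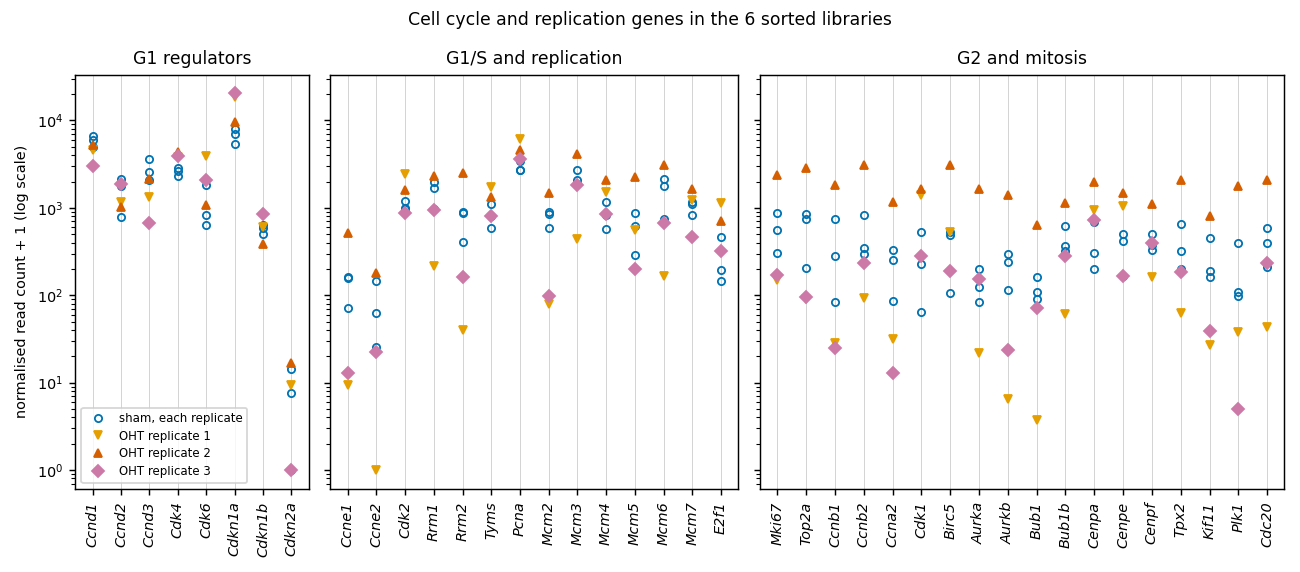
Normalised read count plus 1 (log scale) of each of the 40 genes in the 6 sorted libraries, by role. Open circles are the 3 sham libraries and filled marks the 3 OHT libraries. In the G2 and mitosis panel OHT replicate 2 is the highest mark for 18 of 18 genes, while OHT replicates 1 and 3 mostly lie below the sham circles.

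Cdkn1a, which encodes the CDK inhibitor p21, a p53 target that halts the cycle in G1, had 6956, 5334 and 7972 normalised counts in sham replicates 1, 2 and 3 and 18458, 9488 and 20419 in OHT replicates 1, 2 and 3. The groups did not overlap, and OHT replicate 2 was the lowest of the OHT libraries. On the log2 scale the difference was 1.20 (SE 0.37, 95% interval 0.39 to 2.01, adjusted p 0.332 in limma). Without OHT replicate 2 it was 1.54 with a limma adjusted p of 0.211. Cdkn1b, the inhibitor p27 of resting cells, was at 586, 503 and 634 in sham and 605, 387 and 851 in OHT. OHT replicate 2 was the lowest and OHT replicate 3 the highest library of the 6, and the log2 difference was 0.031 (SE 0.51). Cdkn2a, the locus of the inhibitors Ink4a and Arf, had 13, 0 and 7 reads in sham and 6, 19 and 0 in OHT. It did not pass the filter on low values and was not tested, and a count of 0 allows up to 0.0703 ppm in sham replicate 2 and 0.0636 ppm in OHT replicate 3.

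The kinase genes of G1 were higher in most OHT libraries. Cdk4 was at 2635, 2327 and 2844 in sham and at 3798, 4370.3 and 3952 in OHT, with no overlap on this scale (difference 0.64 on the log2 scale, SE 0.32, adjusted p 0.461 in limma). In ppm it was at 67.4, 59.2 and 66.8 in sham and 57.7, 99.1 and 104.6 in OHT, so that OHT replicate 1 was there the lowest of the 6 and the groups overlapped. Cdk6 was at 1826, 636 and 833 and 3885, 1087 and 2096, where OHT replicate 2 lay within the sham range (difference 1.06 on the log2 scale, SE 0.55, adjusted p 0.468 in limma). Neither difference passed the threshold.

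The D-type cyclins, the partners of these kinases, did not share this order. Ccnd1 was at 6658, 6033 and 5033 in sham and 4644, 5277 and 3044 in OHT, with OHT replicate 2 within the sham range (difference -0.48 on the log2 scale, SE 0.34). Ccnd3 was at 2089, 3601 and 2567 in sham and 1333, 2123 and 665 in OHT, where OHT replicates 1 and 3, and in ppm also OHT replicate 2, lay below every sham library (difference -1.12 on the log2 scale, SE 0.47, adjusted p 0.401 in limma). Ccnd2 varied within both groups, with 775, 1759.9 and 2117 in sham and 1159, 1017 and 1898 in OHT. Its log2 difference of -0.12 (SE 0.48) was 0.031 without sham replicate 2, 0.16 without sham replicate 3 and 0.059 without OHT replicate 2. Per kilobase of transcript, a scale on which genes can be set side by side, the mean over the 6 sorted libraries was 31.8 ± 10.5 ppm for Ccnd1, 23.0 ± 13.0 ppm for Ccnd3 and 5.40 ± 2.46 ppm for Ccnd2 (SD, n = 6). The ranges of Ccnd1 (18.9 to 45.6) and Ccnd3 (8.33 to 43.3) overlapped, and that of Ccnd2 (2.78 to 7.94) lay below both. Cdk4 was likewise above Cdk6 on this scale, at 36.9 ± 10.0 against 3.21 ± 1.65 ppm per kilobase.

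The genes of G1/S and replication had wider spread in OHT than in sham in 14 of 14 cases, where 74.3% of all genes did. E2f1, the factor that drives S phase genes, was at 191, 146 and 465 in sham and 1126, 698 and 323 in OHT. OHT replicates 1 and 2 lay above every sham library and OHT replicate 3 within their range (difference 1.43 on the log2 scale, SE 0.69, adjusted p 0.447 in limma). Ccne1, cyclin E1, was at 158, 71.0 and 163 in sham and at 8.29, 517 and 12.02 in OHT, so that 1 OHT library lay above and the others below all sham libraries. Ccne2, cyclin E2, was at 146, 61.8 and 24.9 in sham and 0, 179 and 21.6 in OHT, and the 0 in OHT replicate 1 allows up to 0.0630 ppm. Both E cyclins had log2 differences below 0 (-1.63 and -1.96) with wide intervals (-4.81 to 1.55 and -5.81 to 1.90). Without OHT replicate 1 the value of Ccne2 was 0.041. Cdk2, the kinase partner of cyclin E, was at 959.7, 993 and 1189 and 2417, 1610.1 and 874, with OHT replicates 1 and 2 above and OHT replicate 3 below the sham libraries (difference 0.53 on the log2 scale, SE 0.46).

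Pcna, the sliding clamp that holds polymerases on DNA, had 3426, 2708 and 2702 normalised counts in sham and 6088, 4629.6 and 3583 in OHT, without overlap. On the log2 scale the groups differed by 0.67 (SE 0.34, adjusted p 0.466 in limma). Per kilobase Pcna was at 56.3 ± 10.5 ppm over the sorted libraries, with a lowest value of 41.8, which is above the highest value of any MCM gene, 30.9 for Mcm3. Pcna, Ccnb1 and Tyms have processed pseudogenes in the mouse, and the labels do not say how shared reads were counted.

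The nucleotide-making enzymes differed from each other. Rrm2, the regulated small subunit of ribonucleotide reductase, was at 869.9, 400.3 and 897 in sham and 38.7, 2472 and 163 in OHT. Its partner Rrm1, the large subunit, was at 1706, 970.4 and 1962 and 216, 2343 and 943. In both genes OHT replicate 2 lay above and OHT replicates 1 and 3 below every sham library, and the gap of OHT replicate 1 was wider for Rrm2. Tyms, thymidylate synthase, was at 1096, 592 and 807 and 1722, 1335 and 816, so that OHT replicate 1 was here the highest of the 6, though in ppm OHT replicate 2 was. In limma Rrm2 differed by -1.43 (SE 1.18) on the log2 scale, Rrm1 by -0.92 (SE 0.73) and Tyms by 0.61 (SE 0.47), none past the threshold.

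The MCM helicase, which unwinds DNA at the fork, is built of 6 different subunits in equal proportion, Mcm2 to Mcm7. In sham their levels per kilobase of transcript lay within 3.87-fold of each other in replicate 1, 7.27-fold in replicate 2 and 3.69-fold in replicate 3. In OHT replicate 2 they lay within 3.15-fold, but in OHT replicates 1 and 3 they spread over 18.3-fold and 21.0-fold. The subunit at the bottom in both was Mcm2, at 0.349 and 0.762 ppm per kilobase against 4.47 to 6.39 in sham. Mcm2 was also the lowest subunit in OHT replicate 2, at 9.82 ppm per kilobase. At the top stood Mcm4 in OHT replicate 1 (6.40 ppm per kilobase) and Mcm3 in OHT replicate 3 (16.0 ppm per kilobase). Mcm4, Mcm7 and Mcm2 thus had different orders over the same libraries, and the subunits did not move as a block in OHT replicates 1 and 3.

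In normalised counts, Mcm2 was at 842, 592 and 892 in sham and 77.4, 1460.3 and 97.0 in OHT, the largest difference of the 6 on the log2 scale (-1.77, SE 0.97, limma adjusted p 0.489). Without OHT replicate 2 it was -3.12 (limma adjusted p 0.211). Mcm4 was at 836, 565 and 1155 and 1512, 2059 and 846, with a log2 difference of the other sign (0.76, SE 0.48). Mcm6 was at 2116, 739 and 1764 in sham and 164, 3094 and 664 in OHT, with OHT replicates 1 and 3 below every sham library. The remaining subunits had log2 differences of -0.56 (Mcm3), 0.21 (Mcm5) and -0.062 (Mcm7), with SE of 0.67, 0.81 and 0.52. Those of Mcm3, Mcm5, Mcm6 and Mcm7 changed sign when 1 library was left out, with ranges of -1.30 to 0.32, -0.70 to 1.05, -2.08 to 0.032 and -0.43 to 0.48.

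**Figure D2:**
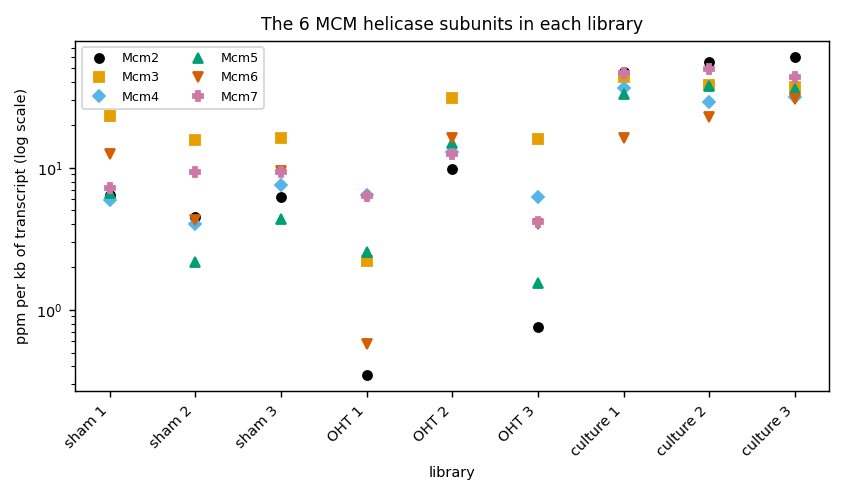
Level of the 6 MCM helicase subunits in each of the 9 libraries, in ppm of the library total per kilobase of transcript (log scale). The subunits lie close together in OHT replicate 2 (3.15-fold) and in the cultures (1.99-fold to 2.90-fold). They spread over 18.3-fold and 21.0-fold in OHT replicates 1 and 3. Mcm2 is at the bottom in each OHT library.

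The genes of G2 and mitosis set the OHT libraries furthest apart. OHT replicate 2 lay above every sham library for 18 of 18 of these genes, for 14 of 14 genes of G1/S and for 2 of 7 tested G1 regulators (Cdk4 and Cdkn1a), against 28.4% of all genes. It was the highest of the 6 sorted libraries for 18 of 18 G2 and mitosis genes, for 10 of 14 G1/S genes and for 29 of the 39 genes in all, against 11.9% of all genes. It lay below every sham library for 1 of the 39 genes, Cdkn1b, against 26.5% of all genes. OHT replicate 1 lay below every sham library for 14 of 18, 7 of 14 and 2 of 7 genes of the 3 roles, 23 of 39 in all (39.5% of all genes), and above for 12 of 39 (38.0% of all genes). OHT replicate 1 was also the lowest of the 6 libraries for 11 of 18 G2 and mitosis genes and 18 of the 39 genes, against 30.6% of all genes. OHT replicate 3 lay below every sham library for 12 of 18, 10 of 14 and 2 of 7 genes, 24 of 39 in all (33.1% of all genes), and above for 6 of 39 (30.2% of all genes). The share of OHT replicate 2 is far from its background and those of OHT replicates 1 and 3 less so. In ppm OHT replicate 2 was likewise above every sham library for 18 of 18, 14 of 14 and 2 of 7 genes (20.8% of all genes). OHT replicate 1 lay below for 27 of 39 in ppm (53.7% of all genes) and OHT replicate 3 for 21 of 39 (30.2% of all genes). The place of OHT replicate 1 relative to the sham range differed between the scales for 7 genes, Ccnd2, Cdk4, Cdkn1b, Cenpa, Tyms, Mcm4 and Mcm7, that of OHT replicate 3 for 4 genes, Ccnd2, Cenpe, Rrm1 and Mcm3, and that of OHT replicate 2 for Ccnd3. This order of libraries was seen in the data and not tested.

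Mki67, which encodes the proliferation marker Ki-67, was at 863, 303 and 558 in sham and 148, 2397 and 169.9 in OHT. Top2a, the topoisomerase that untangles replicated chromosomes, was at 842, 204 and 742 and 89.8, 2856 and 95.4. In both, OHT replicate 2 stood above the highest sham library and OHT replicates 1 and 3 below the lowest. The group means therefore ran one way (575 ± 280.0 in sham and 905 ± 1292 in OHT for Mki67, SD, n = 3) and the log2 difference the other (-0.42, SE 0.96). For Top2a the log2 difference was -0.79 (SE 1.18), with a 95% interval of -3.37 to 1.80.

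The mitotic cyclins had the same order of libraries. Ccnb1, cyclin B1, was at 281, 82.1 and 742 in sham and 27.6, 1831 and 24.0 in OHT, and Ccnb2, cyclin B2, at 345, 297 and 832 and 91.2, 3065 and 231. Ccna2, cyclin A2, which acts from S phase into G2, was at 249, 85.8 and 329 and 30.4, 1159 and 12.02. OHT replicates 1 and 3 were lower than each sham library for these 3 genes. Their kinase partner Cdk1 did not share that: it was at 225, 62.7 and 525 in sham and 1411, 1648 and 277 in OHT, so that OHT replicate 1 was also above the sham libraries and OHT replicate 3 within their range. Its log2 difference was 2.14 (SE 0.89, 95% interval 0.19 to 4.09, limma adjusted p 0.397). The log2 differences of the cyclins were -1.24 (SE 1.501), -0.13 (SE 1.07) and -1.31 (SE 1.45).

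The mitotic kinases gave the widest range within OHT. Plk1, the polo kinase of mitotic entry, was at 97.1, 109 and 393 in sham and 37.3, 1764 and 4.01 in OHT, a 440-fold range between OHT libraries against 4.05-fold between sham libraries. Aurkb, the Aurora kinase of the chromosome passenger complex, was at 238, 113 and 297 and 5.53, 1387 and 22.4, with ranges of 251-fold in OHT and 2.64-fold in sham. The lowest values rest on 5 reads for Plk1 and 4 reads for Aurkb. Aurka, the Aurora kinase of the spindle poles, was at 124, 82.1 and 198 and 20.7, 1629.9 and 151, and OHT replicate 3 lay within the sham range. Birc5, survivin, a partner of Aurkb in the same complex, was at 494, 105 and 535 and 535, 3089 and 191, so OHT replicate 1 was not low for this gene. The log2 differences were -1.22 (Plk1), -1.75 (Aurkb), 0.46 (Aurka) and 1.16 (Birc5), with SE between 0.97 and 1.72. None passed the threshold in limma.

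Of the spindle checkpoint kinases, Bub1 was at 160.1, 108 and 89.0 in sham and 2.76, 632 and 69.7 in OHT, and Bub1b at 318, 367 and 627 and 59.4, 1142 and 278. The OHT replicate 1 value of Bub1 rests on 2 reads. Cdc20, which activates the anaphase-promoting complex once the checkpoint is met, was at 396, 209 and 588 and 42.8, 2059.6 and 233. Of the spindle motor and assembly genes, Kif11, the kinesin that pushes spindle poles apart, was at 162, 188 and 454 and 26.3, 812 and 38.5, and Tpx2, an activator of Aurka, at 322, 200.2 and 644 and 60.8, 2072 and 182. For these 5 genes the highest library was OHT replicate 2 and the lowest OHT replicate 1. Their log2 differences ran from -1.33 (Kif11, SE 1.21) to -0.28 (Tpx2, SE 1.10) in limma. In edgeR and DESeq2 all 5 were above 0, from 0.084 and 0.13 for Kif11 to 0.96 for Bub1 in edgeR and 0.99 for Tpx2 in DESeq2.

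The centromere genes were less alike. Cenpa, the histone H3 variant that marks centromeres, was at 303, 200.2 and 696 in sham and 952, 1989.6 and 721 in OHT, without overlap on this scale. In ppm it was at 7.75, 5.09 and 16.3 in sham and 14.5, 45.1 and 19.1 in OHT, and OHT replicate 1 then lay below sham replicate 3. The log2 difference was 1.67 (SE 0.61, 95% interval 0.33 to 3.01, limma adjusted p 0.364). Cenpe, a kinetochore motor, was at 499, 167 and 416 and 1061, 1481 and 163, with OHT replicates 1 and 2 above and OHT replicate 3 below the sham libraries (difference 0.96 on the log2 scale, SE 0.83). Cenpf, a large kinetochore protein of late G2, was at 506, 332 and 374 and 159, 1092 and 397 (difference 0.045 on the log2 scale, SE 0.72). Without OHT replicate 2 the value of Cenpf was -0.66 and without sham replicate 2 it was -0.085, so its sign rested on single libraries.

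The log2 differences of these genes depended on single OHT libraries. With all 6 libraries the limma median of the 18 G2 and mitosis genes was -0.41, with 6 of 18 above 0. Leaving out OHT replicate 2 turned the sign of 4 of the 39 genes, and leaving out OHT replicate 1 that of 11. Relative to the sham mean on the log2 scale, the median of the 18 G2 and mitosis genes was -2.48 in OHT replicate 1, 2.54 in OHT replicate 2 and -0.93 in OHT replicate 3, while the medians of all genes were -0.12, 0.045 and -0.021. Without OHT replicate 2, 13 of the 39 genes were lower at an unadjusted p under 0.05 in limma (9.04% of all genes) and 2 higher, Cdk6 and Cdkn1a (8.32% of all genes). The 13 were Mki67, Top2a, Ccnb1, Ccna2, Ccne1, Ccnd3, Aurkb, Kif11, Plk1, Rrm1, Rrm2, Mcm2 and Mcm6. OHT replicate 2 was the highest of the 6 libraries for 29 of the 39 genes. Leaving it out lowers the OHT mean of those genes by construction, so this count is no support for lower levels in OHT. The log2 differences were then -4.02 for Aurkb, -3.55 for Plk1, -3.49 for Ccne1 and -3.08 for Rrm2. None passed after adjustment, with a smallest limma adjusted p of 0.211 among the 39. In either direction there were 15 of 39 genes at that unadjusted level without OHT replicate 2 (17.4% of all genes), and 1 without sham replicate 2 (3.78% of all genes). With all 6 libraries no member of G1/S or of G2 and mitosis was lower at that level.

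**Figure D3:**
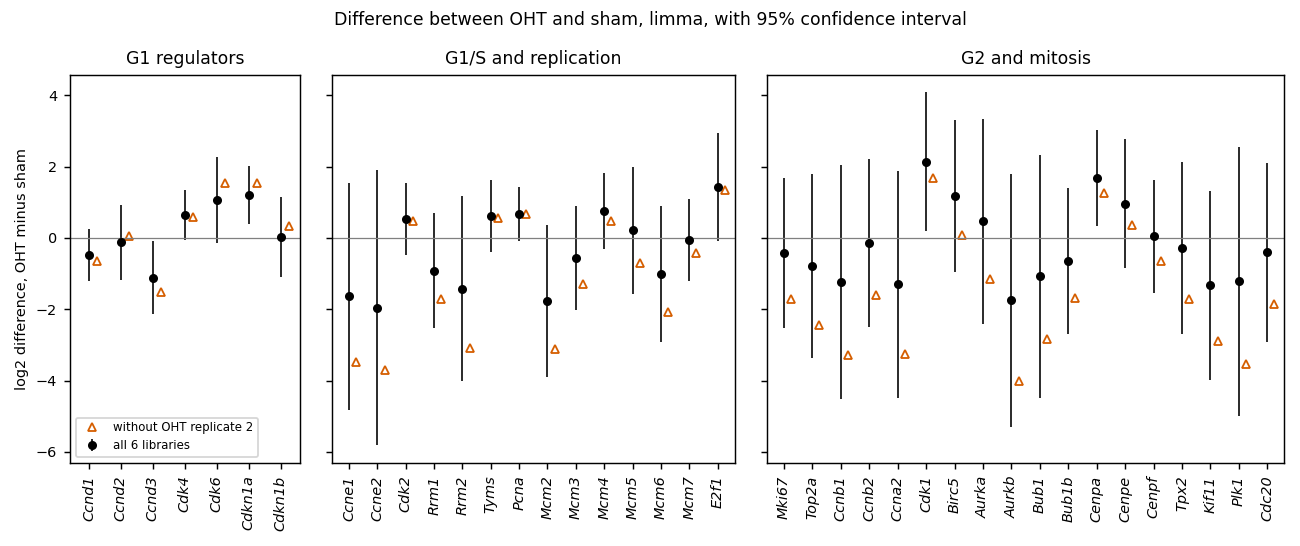
Log2 difference between OHT and sham from limma for the 39 tested genes, by role. Black points with bars are the estimate and its 95% confidence interval with all 6 libraries, and open triangles the estimate without OHT replicate 2. Most triangles of the G2 and mitosis genes lie well below the points, such as Aurkb (-1.75 and -4.02), while those of Cdkn1a and Cdk6 lie above theirs.

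Summed over a role, the levels in ppm of the library total show the same order. The 18 G2 and mitosis genes summed to 164, 81.7 and 212 ppm in sham and 72.3, 728 and 86.3 ppm in OHT. The 14 G1/S genes summed to 430, 282 and 374 ppm in sham and 237, 644 and 287 ppm in OHT. The 8 G1 regulators summed to 551, 513 and 517 ppm in sham and 515, 539 and 872 ppm in OHT, and here OHT replicate 3 was the high library. Cdkn1a alone held 541 ppm of that sum, against 136 to 187 ppm in sham. In ppm OHT replicate 3 lay above every sham library for 5 of 7 tested G1 regulators (33.5% of all genes) and below for 2 (30.2%). The log2 ratio of the OHT mean to the sham mean was 0.95 for G2 and mitosis, 0.11 for G1/S and 0.28 for the G1 regulators. Without OHT replicate 2 it was -0.95 for G2 and mitosis and -0.47 for G1/S, without sham replicate 2 it was -0.045 for G1/S, and without OHT replicate 3 it was -0.000979 for the G1 regulators. The direction of each sum thus rested on single libraries.

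OHT replicate 2 also had the most recovered reads of the sorted libraries, at 53.6 M. Its microglia and macrophage markers (14 of 14 listed) summed to 54975 ppm, within the range of the other sorted libraries. Its Müller glia markers (12 of 12 listed) summed to 1826 ppm, next to 1860 ppm in OHT replicate 1 and below the other 4. Its lymphocyte markers, with 3 of 8 listed in both tables, summed to 14.5 ppm, the highest of the 6 (2.74 to 11.2 ppm in sham, 1.39 and 7.47 ppm in the other OHT libraries), and all of it was Cd4, a gene that macrophages can also express. The part of depth or of other cells in the levels of the cell cycle genes was not tested.

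The primary cultures showed these genes at higher levels. All 3 cultures lay above all 6 sorted libraries for 35 of the 40 genes, against 32.5% of the 15438 genes in both tables, and below for 0 of the 40, against 16.5%. The culture mean was at least 4 times the sorted mean for 29 of the 40 genes, against 15.4%. The median ratio was 6.88 for the 40 genes and 1.15 for all genes. By role the median ratio was 9.18 for G2 and mitosis, 4.86 for G1/S and 4.43 for the G1 regulators. Between cultures the coefficient of variation was 2.06% to 30.8% (median 11.5%, beside 16.5% for all genes). The tables were normalized separately, so levels are in ppm of each library's total and no test was made. Age, serum, growth on plates and cell makeup differ between these preparations together and cannot be told apart.

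**Figure D4:**
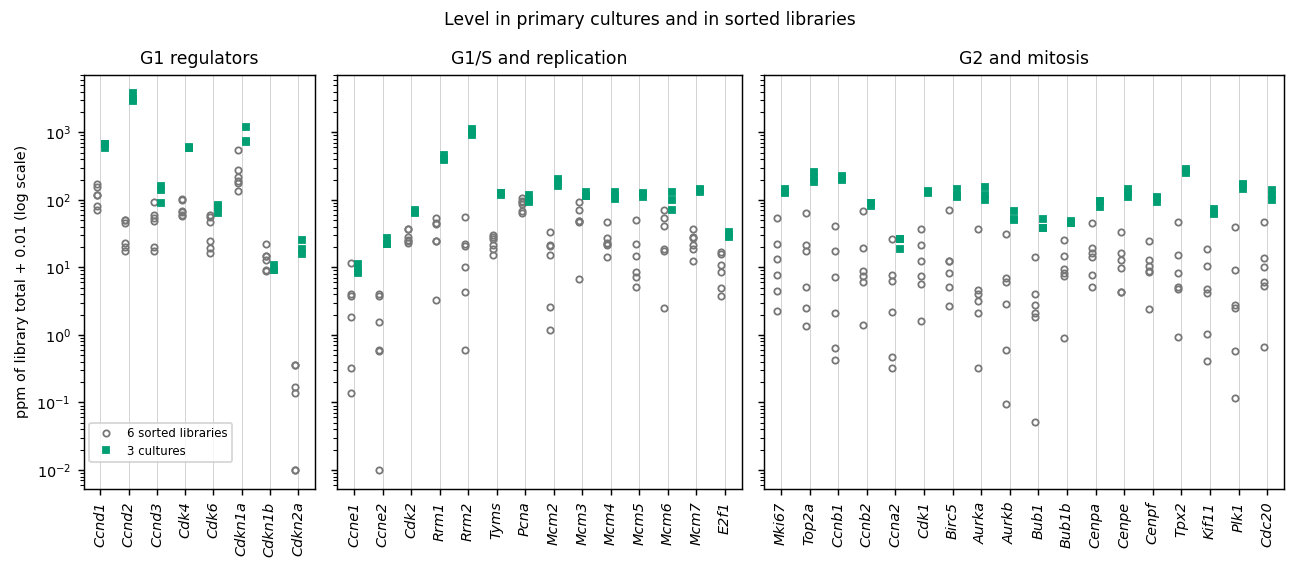
Level of each of the 40 genes in ppm of the library total plus 0.01 (log scale), in the 6 sorted libraries (open circles) and the 3 cultures (filled squares). The squares lie above all circles for 35 of 40 genes, and overlap with them for Ccnd3, Cdkn1b, Ccne1, Pcna and Ccna2.

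The 5 genes whose ranges overlapped were Ccnd3, Cdkn1b, Ccne1, Pcna and Ccna2. Pcna had the highest mean per kilobase of the 14 G1/S genes in sorted cells. It was at 119, 94.6 and 101 ppm in the cultures and 85.4 ± 16.0 ppm over the sorted libraries (SD, n = 6). The ratio was 1.23. Cdkn1b was at 11.02, 9.09 and 9.004 ppm in the cultures and 13.9 ± 5.03 ppm in sorted cells, a ratio of 0.700, the lowest of the 40. Ccna2 and Ccne1 were overlapped by OHT replicate 2 alone. Without that library 37 of the 40 genes lay above, against 33.2% of all genes.

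Among the G1 regulators, Ccnd2 stood out in the cultures with 3778, 3084 and 2892 ppm, against 34.2 ± 15.6 ppm over the sorted libraries, a ratio of 95.1. Per kilobase the order of the D-type cyclins in the cultures was Ccnd2 (514 ± 73.6 ppm), Ccnd1 (171 ± 10.7 ppm) and Ccnd3 (61.8 ± 17.0 ppm; SD, n = 3), with no overlap of their ranges. In the sorted libraries Ccnd2 was the lowest of the 3 by its mean. Cdk4 was at 584, 607 and 589 ppm, 7.83 times the sorted mean, and Cdk6 at 64.0, 78.8 and 84.5 ppm, 2.05 times, with its lowest culture only 1.08 times the highest sorted library. The inhibitors went both ways. Cdkn1a was at 1189, 749.7 and 731 ppm (3.47 times the sorted mean) and Cdkn2a at 15.5, 25.6 and 18.8 ppm against a sorted mean of 0.164 ppm, 122 times. Cdkn1b was at 0.700 times, with overlapping ranges. From the list of other inhibitors, Cdkn1c was at 0.0229 and Cdkn2c at 0.169 times the sorted mean, while Cdkn2b was at 17.8, Cdkn3 at 5.14 and Cdkn2d at 1.87 times. The symbol Cdkn2a covers both Ink4a and Arf, which these values do not separate.

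Among the replication genes, Rrm2 was at 899, 1029 and 1129 ppm in the cultures, 53.4 times its sorted mean of 19.1 ± 20.1 ppm. Rrm1 was at 465, 402 and 391 ppm, 12.8 times. Per kilobase Rrm2 and Rrm1 had near means in sorted cells (8.70 ± 9.16 and 8.16 ± 4.62 ppm) and stood apart in the cultures (465 ± 52.6 and 105 ± 9.98 ppm, without overlap). The 6 MCM subunits lay within 2.90-fold, 2.44-fold and 1.99-fold of each other per kilobase in the 3 cultures, with Mcm2 on top and Mcm6 at the bottom in each. Mcm2 was thus the highest subunit in the cultures and the lowest in each OHT library. Ccne2 was at 23.7 ± 2.78 ppm and E2f1 at 30.6 ± 2.32 ppm, 13.6 and 3.01 times the sorted means.

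Among the mitotic genes, Tpx2 was at 263, 247 and 291 ppm (19.7 times the sorted mean), Ccnb1 at 229.5, 207 and 199 ppm (18.4 times) and Plk1 at 171, 144 and 167 ppm (17.5 times). Mki67 was at 126, 144 and 132 ppm, 7.75 times, and Cdk1 at 135, 128 and 129.6 ppm, 9.14 times. These levels were above even OHT replicate 2, the lowest culture being 2.32 times its level for Mki67, 4.80 times for Ccnb1 and 3.61 times for Plk1. Among the 17 mitotic genes without overlap the smallest such gaps were 1.17 times for Ccnb2 and 1.57 times for Birc5. The summed G2 and mitosis level was 2304, 2011 and 2096 ppm in the cultures, 9.53 times the mean over the sorted libraries and 17.3 times without OHT replicate 2. For G1/S the sum was 2472, 2561 and 2689 ppm (6.85 times), and for the G1 regulators 6326, 5358 and 5148 ppm (9.60 times). Of these G1 sums Ccnd2 alone held 3778, 3084 and 2892 ppm, and the median ratio of the 8 G1 regulators was 4.43. Beside these sums stand the markers of mural cells and fibroblasts in the cultures, with all 9 listed and 6313 to 8937 ppm, of which Col1a1 alone held 4121 to 6521 ppm, and their part in the result was not tested.

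**Figure D5:**
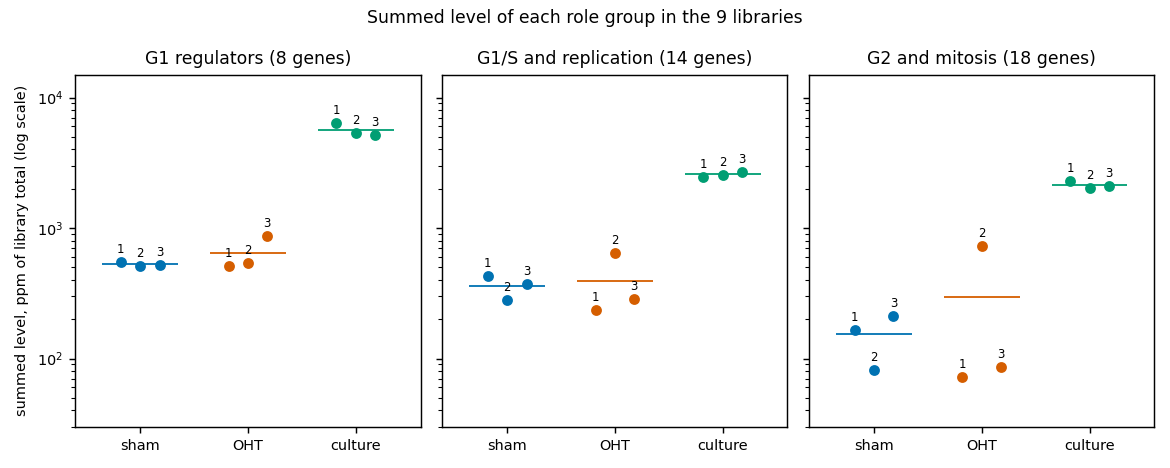
Summed level of the genes of each role in the 9 libraries, in ppm of the library total (log scale). Points are libraries, labelled by replicate number, and lines are group means. OHT replicate 2, at 728 ppm for G2 and mitosis, stands above the sham libraries (81.7 to 212 ppm) and below the cultures (2011 to 2304 ppm).

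Further genes of the same pathways came from 8 lists with 153 genes, of which 151 were tested. In limma 0 passed the adjusted threshold in any list, and 7 had an unadjusted p under 0.05, where 11.7% of all genes did. The 7 were Lig1, Dctpp1, Cdca2, Cdkn3 and Bax (higher in OHT) and Lin54 and Cdkn1c (lower), of which Lig1, Lin54, Cdca2, Cdkn1c and Cdkn3 are named because of these values.

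Origin licensing and fork genes load the MCM helicase and copy DNA behind it. Of 33 tested genes 1 was higher at an unadjusted p under 0.05 and 0 were lower, with a median log2 difference of -0.11, and Gmnn was not listed. For 24 of them OHT replicate 2 was above every sham library, against 28.4% of all genes. The replication protein gene Rpa1 was at 3034 ± 465 in sham and 3376 ± 331 in OHT (3 libraries each, SD), the flap nuclease gene Fen1 at 1606 ± 235 and 2054 ± 1421, and the clamp loader genes Rfc1 and Rfc2 had log2 differences of 0.058 and 0.67. In the cultures 27 of 33 genes lay above all sorted libraries, against 32.5% of all genes.

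Genes of nucleotide supply numbered 10, of which Dctpp1, which clears modified dCTP, was higher at that level (1006 ± 155 in sham and 2411 ± 434 in OHT; difference 1.26 on the log2 scale, SE 0.38, adjusted p 0.332 in limma). Samhd1, which breaks down dNTPs in resting and myeloid cells, had a log2 difference of 0.29, Dtymk 0.21 and Umps 0.22. The median of the list was 0.21, and OHT replicate 2 was above every sham library for 5 of 10 genes (28.4% of all genes). In the cultures 6 of 10 lay above all sorted libraries (32.5% of all genes).

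The RB, E2F and DREAM genes, which repress or activate cell cycle promoters such as those shown, had a median of -0.17 in 19 genes, with 1 lower (Lin54) and 0 higher. Tfdp1, the dimer partner of E2F factors, was at 1049, 1116 and 1445 in sham and 499, 1787 and 258 in OHT, with OHT replicate 2 above and OHT replicates 1 and 3 below every sham library. The DREAM subunit genes Lin37, Lin52 and Rbbp4 had log2 differences of 0.52, -0.45 and 0.43. OHT replicate 2 was above every sham library for 11 of 19 genes (28.4% of all genes). The cultures were above all sorted libraries for 8 of 19, a share near the 32.5% of all genes.

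Lists of mitotic structure held the pattern of OHT replicate 2 most often. It was above every sham library for 22 of 26 kinetochore and checkpoint genes, for 22 of 25 genes of mitotic kinesins, spindle and cytokinesis, and for 8 of 8 condensation genes, against 28.4% of all genes. Their median log2 differences were -0.060, -0.17 and -0.22, with 1 (Cdca2), 0 and 0 higher and 0 lower at an unadjusted p under 0.05. Prc1, which bundles spindle microtubules, was at 288, 271 and 768 in sham and 1051, 1273 and 133 in OHT. Ube2c, the ubiquitin carrier of the anaphase-promoting complex, was at 214, 76.6 and 388 and 111, 1766 and 0, and Ckap2l, a spindle protein, at 339.9, 147 and 575 and 92.6, 1615 and 114. The 0 allows up to 0.0636 ppm. Cdca8, of the passenger complex, was at 488, 232 and 681 and 537, 2191 and 135. OHT replicate 2 was the highest library for all 4 of these genes and OHT replicate 3 the lowest for Prc1, Ube2c and Cdca8 but not for Ckap2l. Of the condensin genes, Smc2 had a log2 difference of 1.09, Smc4 0.30, Ncapd2 -0.60 and Ncaph2 -0.38. The checkpoint gene Bub3 had 0.62 and the kinetochore gene Zwint -0.032. In the cultures 24 of 26, 22 of 25 and 8 of 8 genes lay above all sorted libraries, against 32.5% of all genes.

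Other CDK inhibitors and regulators had a median log2 difference of 0.43 in 16 genes. Cdkn3, a phosphatase of Cdk2, was higher (log2 difference 1.79, limma adjusted p 0.407) and Cdkn1c, the inhibitor p57, lower (-1.98, limma adjusted p 0.407) at an unadjusted p under 0.05. Cdkn1c was at 1091, 2066 and 1796 in sham and 949, 912 and 74.5 in OHT, and in the cultures it was at 0.347, 0.846 and 0.638 ppm against a sorted mean of 26.6 ppm. Cks1b, a small subunit bound to CDKs, had a log2 difference of 1.08, Cdkn2d 0.92, and the kinase pair of the CDK-activating complex, Cdk7 and Ccnh, 0.55 and 0.11. For 10 of 16 genes OHT replicate 2 was above every sham library (28.4% of all genes), and the cultures were above all sorted libraries for 12 of 16 (32.5% of all genes).

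The p53 target genes, to which Cdkn1a belongs, had a median of 0.11 in 14 tested genes of 15. Bax, which promotes apoptosis at mitochondria, was at 3997, 3111 and 4239 in sham and 11026, 6120.4 and 5251 in OHT without overlap (difference 0.92 on the log2 scale, SE 0.36, adjusted p 0.385 in limma). Ccng1, cyclin G1, had a log2 difference of 0.32, Plk2 0.73 and Btg2 0.37. OHT replicate 2 was above every sham library for 6 of 14 genes, against 28.4% of all genes. In the cultures 10 of 15 genes lay above all sorted libraries (32.5% of all genes), with Ccng1 at 1226 ± 220.1 ppm, 15.8 times its sorted mean.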

How the data were processed

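The deposited signal is 1 value per gene and library, which the authors made from RNA amplified with a low-input template-switching kit and read as 150 bp pairs, per the labels' protocols. Of the sorted values 100% were whole multiples, within 0.05 reads, of the smallest step in their column, so each value is a gene count divided by 1 factor per library. The submitters' processing notes name bcl2fastq 2.20, Trim Galore 0.6.6, FastQC 0.11.9, STAR 2.7.1a and the build mm39, with no role. For the counting program, the annotation and the normalization tool, no name is given in the sources used here.

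The labels gave groups and replicate numbers. OHT was compared with sham by limma 3.58.1 (lmFit, eBayes with trend, R 4.3.3) on log2(value + 1). The fit held the 14403 genes whose mean over the 6 sorted libraries reached 10, and p-values were adjusted by Benjamini-Hochberg and the threshold was 0.05. Log2 differences are on this scale, which understates those of low genes. Alternatives were pseudocounts of 0.5 and 10, no filter, TMM factors, quantile normalization, a replicate block, leaving out each library, equal library totals (added after seeing the data), edgeR 4.0.16 and DESeq2 1.42.0 on the recovered reads. The fit was tested on simulated data, with the same setting of variability for all genes and no outlying library. That test does not show how the fit behaves with libraries as spread as these. Nothing in the labels says that pools came from separate animals, so p-values measure the spread between these libraries, which may be technical in part. A count of 0 allows up to 3 reads. This limit is for counting error alone, because reads were amplified without molecular identifiers and need not be independent molecules.

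Levels per kilobase used the longest protein-coding transcript of GENCODE M21 (GRCm38, not the authors' build). Summed levels and the comparison with the cultures are descriptions without a test. The members, role groups, lists and alternatives were chosen with earlier results of these data known. All 40 members are named. Of each pathway list up to 4 genes are named by rule. Those past the adjusted threshold come first, then those with the highest mean ppm over the 9 libraries. Beyond this rule, Lig1, Lin54, Cdca2, Cdkn1c and Cdkn3 are named for their unadjusted p-values in limma. Cdkn2b, Cdkn2c, Rb1, E2f5, Gadd45a and Sesn1 are named for their levels in the cultures. Python 3.11.15, numpy 2.4.6, pandas 2.3.3 and matplotlib 3.10.9 were used.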

Additional observations from a re-analysis of the deposited data

How the results depend on the processing

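No member passed the adjusted threshold under any of the 15 alternatives, of which equal library totals was added after seeing the data, and in which the count of members was 0 each time in limma, edgeR and DESeq2, with 1 (without sham replicate 2, 3.78% of all genes) to 15 (without OHT replicate 2, 17.4% of all genes) members at an unadjusted p under 0.05. The smallest adjusted p of a member was 0.0929, for Cdkn1a in DESeq2. Over all genes the count of 0 became 250 in DESeq2, and 0 to 12 in limma when 1 sorted library was left out (12 without sham replicate 1 and 7 without sham replicate 3). The replicate block gave 2 genes, of which 0 were members (5 of 39 members and 12.6% of all genes at an unadjusted p under 0.05). The Pearson r of the deviations of equally numbered libraries from their group means, across genes, was 0.078, -0.025 and -0.045. The highest r, 0.0995, was between sham replicate 2 and OHT replicate 3. Whether equal numbers mark a pairing of the samples cannot be told from such correlations alone. Of the 39 log2 differences, 15 kept their sign under every alternative: Ccnd1, Ccnd3, Cdk1, Cdk2, Cdk4, Cdk6, Cdkn1a, Birc5, Cenpa, Cenpe, Tyms, Pcna, Mcm2, Mcm4 and E2f1. Pseudocounts of 0.5 and 10 and no filter on low values turned 0 signs. The sign turned with equal library totals to -0.22 for Cdkn1b, -0.20 for Cenpf and -0.034 for Mcm5, with TMM factors to -0.0062 for Cdkn1b, and with quantile normalization to 0.058 for Mki67, 0.42 for Ccnb2, 0.34 for Tpx2 and 0.24 for Cdc20. In edgeR it turned to 0.63 for Mki67, 0.74 for Top2a, 0.73 for Ccnb1, 1.16 for Ccnb2, 0.82 for Ccna2, 0.43 for Ccne1, 1.10 for Aurkb, 0.96 for Bub1, 0.13 for Bub1b, 0.95 for Tpx2, 0.084 for Kif11, 1.55 for Plk1, 0.27 for Rrm2, 0.034 for Mcm7 and 0.93 for Cdc20, and in DESeq2 to 0.66 for Mki67, 0.77 for Top2a, 0.77 for Ccnb1, 1.20 for Ccnb2, 0.86 for Ccna2, 0.46 for Ccne1, 1.13 for Aurkb, 0.98 for Bub1, 0.17 for Bub1b, 0.99 for Tpx2, 0.13 for Kif11, 1.59 for Plk1, 0.30 for Rrm2, 0.11 for Mcm7 and 0.97 for Cdc20. Both tools compare mean counts and not mean logarithms, and the cause of the turned signs was not tested. Leaving out 1 library turned the sign of 18 genes, with ranges of -1.73 to 0.28 for Mki67, -2.43 to 0.057 for Top2a, -1.59 to 0.93 for Ccnb2, -3.70 to 0.041 for Ccne2, -0.56 to 0.16 for Ccnd2, -0.24 to 0.33 for Cdkn1b, -1.15 to 1.97 for Aurka, -2.84 to 0.86 for Bub1, -1.69 to 0.43 for Bub1b, -0.66 to 0.73 for Cenpf, -1.71 to 0.83 for Tpx2, -3.55 to 0.68 for Plk1, -1.71 to 0.0055 for Rrm1, -1.30 to 0.32 for Mcm3, -0.70 to 1.05 for Mcm5, -2.08 to 0.032 for Mcm6, -0.43 to 0.48 for Mcm7 and -1.85 to 0.92 for Cdc20. The log2 ratio of summed levels of OHT to sham ranged from -0.95 to 1.41 for G2 and mitosis when 1 library was left out. That of the cultures to the sorted libraries was 2.92 for the G1 regulators with totals that leave out the 20 highest genes, against 3.26 with full totals, and 31 of 40 genes then lay above all sorted libraries, against 26.0% of all genes. Low counts limit Cdkn2a, Ccne2, Bub1, Aurkb and Plk1, whose lowest libraries hold 5 reads or fewer.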

Other observations

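Of the 152 genes of the pathway lists in both tables, 21 had a lower mean in the cultures than in the sorted libraries (13.8%, against 45.6% of all genes). For 10 of the 152 genes all cultures lay below all sorted libraries (6.58%, against 16.5% of all genes). Both shares are below those of all genes. The 10 were Rb1, E2f5, Lin52, Spc25, Pttg1, Cdkn1c, Cdkn2c, Gadd45a, Sesn1 and Btg2, of which 4 are given with their values. Spc25, a subunit of the NDC80 kinetochore complex, was at 17786, 37115 and 7571 normalised counts in sham and 16590.4, 7020.1 and 21629.9 in OHT, and its mean of 427 ppm over the sorted libraries was above the 92.9, 110.0 and 113 ppm of the cultures. Pttg1, the gene of securin, was at 118 ppm in the sorted libraries and 67.7, 55.5 and 64.1 ppm in the cultures. Lin52, a DREAM subunit, was at 41.3 and 12.4, 14.5 and 14.4 ppm. Btg2, an antiproliferative p53 target that is also an immediate early gene, was at 1116 and 226, 269 and 257 ppm. Levels of each gene are set against itself only, with no test across the tables.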
